A study of Mus musculus with 6 samples.

Results

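The 10 genes described here, Retnla, Cd209d, Cd209f, Cd209g, Clec10a, Mrc1, Cd163, Folr2, Fcna and Timd4, are genes of the macrophages found along vessels and in the epineurium of nerves. They were picked by symbol, and all 10 were among the genes measured in all 6 libraries. The genes were chosen by measured values, since earlier results on their levels in macrophages of these same libraries were known. Their difference between ages is therefore given as a description, with no test. The place of a cell in the nerve cannot be read from a suspension of single cells, so the tissue location in the name was not checked here.

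Single-cell RNA profiles of enzymatically dissociated mouse sciatic nerve were made on the 10x Genomics Chromium platform at 2 ages, 1 day (P1) and 60 days (P60) after birth, with 3 libraries per age from independent suspensions. The mice of both ages were C57bl/6J animals heterozygous for 3 transgenes, a Cre recombinase active in the Schwann cell lineage, a Rosa26-loxPstoploxP-YFP reporter that this Cre turns on, and a βAct-DsRed transgene that marks all cells red. Each suspension pooled male and female animals in equal parts, and the animals were not perfused, so blood leukocytes were not flushed out. DsRed-positive cells were sorted, and at P1 part of the YFP-positive Schwann cells was left out. No gate of the sort selected macrophages.

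Macrophages that reside in tissues take up debris, bacteria and spent proteins through surface receptors, many of which are lectins that bind sugars. Macrophages along vessels and in the outer sheaths of nerves and brain are known for a set of such receptors together with low MHC class II, whereas macrophages next to nerve fibres share genes with microglia. Several of the genes below, Retnla and Mrc1 among them, are classic targets of interleukin 4 and interleukin 13, which act through the IL-4 receptor and the transcription factor STAT6.

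Cells were taken as macrophages where C1qa and C1qb, which encode chains of complement C1q, together had at least 5 unique molecular identifiers (UMIs, each 1 captured RNA molecule). Among the barcodes with 500 to 5000 genes, 870 of 11735 cells at P1 and 943 of 12602 cells at P60 passed, between 243 and 393 per library. The median macrophage held 6659 to 7941.5 UMIs in the P1 libraries and 3504 to 3904 in the P60 libraries. Because of this gap, shares of cells with a gene were taken after each cell was thinned at random to 1500 UMIs, which left out 5 shallower cells of P60 replicate 3. All 11 macrophage markers checked were found in every library, with a summed level of 12711 to 14145 CPM (the UMIs of a gene summed over the cells of a class in a library and scaled to the same total for each) at P1 and 21451 to 25683 at P60. Markers of fibroblasts in the gated cells summed to at most 10.5% of their level in fibroblasts, those of endothelial cells to at most 5.02%, and those of mural cells to at most 2.06%. Markers of T and NK, mast, neutrophil and dendritic cells summed to at most 13.9 CPM in any library. B cell markers summed to 53.3 to 65.1 CPM at P1 and 28.5 to 30.3 at P60, and erythroid markers to 8.07 to 508 and 1.33 to 26.9. Their part in the results below was not tested. P60 replicate 3 stood apart. It held 85 macrophages with 10 to 19 C1q UMIs, against 17 and 19 in the other P60 libraries, and 48 with 5 to 9, against 5 and 17. Cells with over 10% mitochondrial UMIs made up 16.2% of its kept cells, against 2.97% and 4.84%, and 1.53% of its macrophages.

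Retnla lies at chr16:48842551-48844461 (GRCm38, plus strand) and encodes a small protein that alternatively activated macrophages secrete. The 3 Cd209 genes belong to a cluster of C-type lectin receptors related to DC-SIGN on chromosome 8, where 7 Cd209 genes lie within 394 kb. Cd209d is at chr8:3871824-3878555 (minus strand), Cd209f at chr8:4102787-4105835 (minus strand) and Cd209g at chr8:4134098-4137707 (plus strand). Clec10a, a lectin for galactose-type sugars, is at chr11:70156197-70170834, and Mrc1, the mannose receptor CD206, at chr2:14229392-14332057, where it overlaps Mir511 on the same strand. Cd163, the scavenger receptor for haemoglobin bound to haptoglobin, is at chr6:124304656-124330527. Folr2, folate receptor beta, is at chr7:101839988-101857194 and has Gm10602 and Gm45319 antisense to it. Fcna, the secreted lectin ficolin A, is at chr2:25624666-25628030 with Fcnaos antisense to it. Timd4, a receptor for phosphatidylserine on dying cells, is at chr11:46810800-46844332. The strand setting of the counting was not given in the sources used here. Whether reads of the antisense genes entered the counts of Folr2 and Fcna was not tested.

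The Cd209 genes are in part alike in transcript sequence. Cd209f and Cd209g had 495 windows of 91 bases in common among their transcripts, and such windows made up 28.9% of those in the last 500 bases of Cd209f but 0% of those in the last 500 bases of Cd209g. Over aligned transcript sequence Cd209d and Cd209g were 91.5% identical, with no window of 91 bases in common. Clec10a shared 109 windows with its paralog Mgl2, 5.36% of the windows in its last 500 bases.

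The RefSeq promoter windows (GRCm38.p6, 250 bases before to 50 after the start of a gene) were matched for 9 of the 10 genes, all but Clec10a, with a pair of windows for Folr2. Those of Cd209f and Cd209g are shown because they held an identical stretch of 180 bases, from -154 to 25 in Cd209f and from -168 to 11 in Cd209g, while no other pair of windows shared more than 12 bases. Positions count from the start that RefSeq gives, with -1 as the last base before it. For Retnla, Cd209f and Cd209g this start lies inside the span that GENCODE gives the gene, so that the numbers do not count from the coordinates above and the Cd209g window lies within its GENCODE span. The stretch is in capitals, and the printed windows stop where an annotated UTR begins. Cd209f is printed from chr8:4105836-4106014 on the minus strand and Cd209g from chr8:4134486-4134651 on the plus strand.
Cd209f: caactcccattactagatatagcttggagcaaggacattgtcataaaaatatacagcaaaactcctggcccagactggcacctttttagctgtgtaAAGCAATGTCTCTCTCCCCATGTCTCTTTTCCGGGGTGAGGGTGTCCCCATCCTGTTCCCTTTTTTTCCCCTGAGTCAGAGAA
Cd209g: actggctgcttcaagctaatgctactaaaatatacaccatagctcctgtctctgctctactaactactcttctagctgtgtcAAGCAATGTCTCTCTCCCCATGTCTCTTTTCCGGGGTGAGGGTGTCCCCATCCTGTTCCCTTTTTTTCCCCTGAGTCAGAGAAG

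The Retnla window is shown because 3 motifs searched on both strands lay in it within 70 bases. The STAT6 motif TTCNNNNGAA was at -145 to -136, the C/EBP motif TTGCNNAA at -134 to -127, and the PU.1 motif GAGGAA, on the minus strand, at -196 to -191. All 3 are in capitals in the sequence of chr16:48842359-48842550 on the plus strand. Of all 32851 promoter windows of the same length, 6.95% held the STAT6 motif, 10.8% the C/EBP motif and 28.3% the PU.1 motif. Retnla was the single gene of the 9 with the STAT6 motif and with the C/EBP motif, and 4 of the 9 (Retnla, Cd209d, Mrc1 and Fcna) held the PU.1 motif. A match is a run of letters and was not tested as a binding site.
Retnla: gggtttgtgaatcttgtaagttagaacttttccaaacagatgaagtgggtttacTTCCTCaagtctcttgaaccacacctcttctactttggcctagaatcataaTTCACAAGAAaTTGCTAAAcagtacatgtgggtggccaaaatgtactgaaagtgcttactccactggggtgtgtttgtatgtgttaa

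At birth the genes fell into a group that macrophages already held and a group that was at or near 0. The first comprised Mrc1, Folr2, Fcna, Clec10a, Cd163 and Timd4, and the second Retnla, Cd209d, Cd209f and Cd209g. All 10 had a higher level in each P60 library than in any P1 library, where 23.2% of the 9579 genes tested across all genes showed that order. As the genes were chosen with these levels known, nothing is read from this count. In bulk sums of cells, fewer cells with a gene and less RNA of it per cell cannot be told apart from the level alone, so levels, shares and UMIs per cell are given side by side.

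Retnla had 0 UMIs in all 3 P1 libraries. At P60 it had 20019.9, 19815 and 12857 CPM in replicates 1, 2 and 3 (mean 17564, SD 4077). The 870 macrophages at P1 without a UMI allow a share of up to 0.345% of cells with one, a limit that covers counting error over pooled cells and not cells that express the gene without a captured UMI. Set against 3 UMIs over the 7065198 macrophage UMIs of P1, the level at P60 was at least 41365-fold higher. P60 replicate 3 was the lowest of its group, and without it the P60 mean was 19918. In a single P60 macrophage, Retnla took up to 17.8% of all UMIs of the cell. In all 11735 kept cells of P1 together there were 3 UMIs of Retnla, none of them in a macrophage.

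Cd209d and Cd209g also had no UMI in any P1 macrophage. In P60 macrophages Cd209d had 227, 345 and 292 CPM and Cd209g had 233, 266 and 179 CPM. Against the same floor of 3 UMIs, the means were at least 678-fold (Cd209d) and 532-fold (Cd209g) higher at P60. Cd209f was the one gene of this group with a trace at birth, of 10.9, 0 and 7.75 CPM in P1 replicates 1, 2 and 3, from 45 UMIs in 9 cells. At P60 its level was 875, 809 and 718 CPM, 129 times the P1 mean, with a fitted log2 difference of 7.02 ± 0.47 (SE). The fold was 207 without P1 replicate 1 and 85.8 without P1 replicate 2.

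Among the genes present at birth, the 2 lectin receptors differed in how far the ages lay apart. Mrc1 had 447, 464 and 412 CPM at P1 and 694, 723 and 1025 at P60, a fold of 1.84 and a log2 difference of 0.94 ± 0.15 (SE). Clec10a had 74.3, 119 and 92.6 at P1 and 399, 428 and 505 at P60, a fold of 4.66 and a log2 difference of 2.28 ± 0.18. The Mrc1 level of P60 replicate 3 lay above both other P60 libraries, and without it the P60 mean was 708.

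For the uptake receptors, Cd163 had 76, 51.5 and 48.1 CPM at P1 and 424, 425 and 865 at P60. Its fold was 9.76, and P60 replicate 3 alone set much of the mean, since without it the P60 level was 424 in place of 571. Folr2 had 227, 338 and 290 at P1 and 1070.4, 1102 and 899 at P60, a fold of 3.59 with a log2 difference of 1.90 ± 0.15 (SE). Timd4, the gene with the lowest count of the group at birth (150 UMIs), had 13.9, 30.5 and 19.98 at P1 and 69.2, 87.0 and 73.0 at P60, a fold of 3.56 and a log2 difference of 1.89 ± 0.24.

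Fcna, the secreted ficolin, had 235, 337 and 276 CPM at P1 and 575, 544 and 440 at P60. The fold was 1.84 with a log2 difference of 0.93 ± 0.16 (SE). The plot of levels by library shows the zeros of Retnla, Cd209d and Cd209g at birth and the narrow gap of Mrc1 and Fcna.

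**Figure D1:**
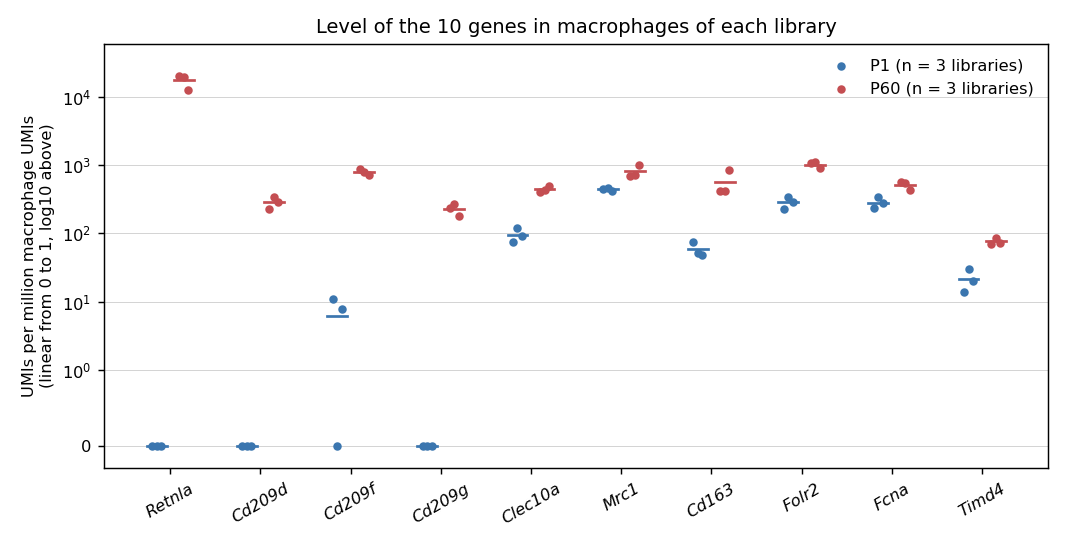
Level of each gene in macrophages, in CPM of the macrophage UMIs (y axis, linear from 0 to 1 and log10 above), for P1 (blue) and P60 (red). Each point is 1 of 3 libraries and the bar their mean. Retnla, Cd209d and Cd209g sit at 0 in all P1 libraries, and every gene has its P60 points above its P1 points.

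The share of macrophages with a gene followed the same grouping. After thinning to 1500 UMIs, Mrc1 was found in 41.5% ± 0.849 of P1 macrophages (SD, n = 3) and 66.1% ± 4.83 of P60 macrophages. Folr2 was found in 18.5% ± 3.68 at P1 and 53.9% ± 4.62 at P60, and Fcna in 16.3% ± 3.84 and 28.5% ± 2.53. Clec10a was found in 10.8% ± 2.73 and 38.6% ± 5.09, Cd163 in 7.56% ± 1.95 and 46.7% ± 12.4, and Timd4 in 2.29% ± 0.427 and 11.2% ± 3.79. Cd209f was found in 0.595% ± 0.548 at P1 and 29.7% ± 2.41 at P60. At P60, Retnla was found in 55.9% ± 7.96, Cd209d in 21.7% ± 2.77 and Cd209g in 18.6% ± 2.79 of macrophages. Without thinning, the share with Mrc1 was 78.6% at P1 against 85.0% at P60, and that with Folr2 29.3% against 67.1%.

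The number of UMIs per positive cell, beside the shares, was as follows. Among cells with at least 1 UMI and without thinning, Folr2 averaged 7.87 UMIs at P1 and 6.24 at P60, and Fcna 8.25 and 5.55, in cells that were shallower at P60 by the medians given above. Cd163 averaged 3.04 and 3.89, Clec10a 3.21 and 3.27, and Mrc1 4.55 and 4.05. The Retnla-positive P60 macrophages held 93.1 to 127 UMIs of Retnla on average in the 3 libraries.

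A background share was read from cells that should lack these genes, and its source, such as free RNA in the suspension, was not tested. In P60 cells gated as fibroblasts (Dcn of at least 10 UMIs, median depth 4048.5 to 6018 UMIs per cell), thinned in the same way, Retnla was found in 13.5% of cells (7.62% to 17.7% over libraries), against 47.4% to 63.2% in macrophages. The other 9 genes were found in at most 0.914% of P60 fibroblasts in any library. At P1 all 10 genes were found in at most 0.260% of fibroblasts before or after thinning in any library, except for Mrc1 (up to 0.699%), Folr2 (up to 0.551%) and Fcna (up to 0.757%) without thinning. The Retnla level in fibroblasts was 106 ± 42.9 CPM (SD, n = 3), and the highest mean level in any class that is not of leukocytes was 113, which is 0.644% of that in macrophages. Every share, co-detection value and count of genes that takes a P60 cell as holding Retnla at 1 UMI includes this background. Exactly 1 Retnla UMI was counted in 55, 45 and 35 macrophages of P60 replicates 1, 2 and 3.

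**Figure D2:**
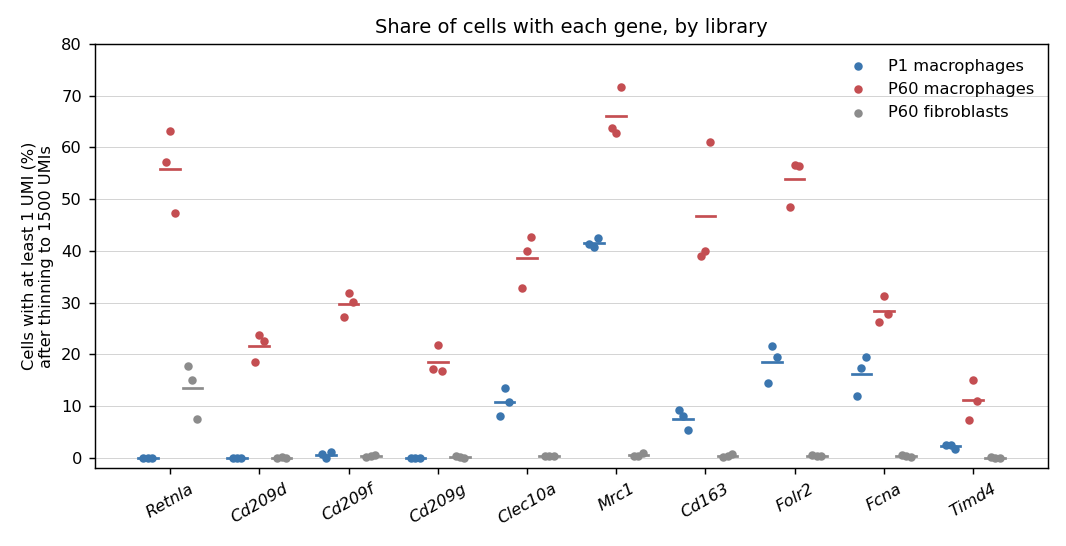
Share of cells with at least 1 UMI of each gene after thinning to 1500 UMIs per cell (y axis, percent), in P1 macrophages (blue), P60 macrophages (red) and P60 fibroblasts (grey). Points are the 3 libraries and bars their means. The fibroblast share is 13.5% on average for Retnla and under 1% for the other 9 genes.

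Counted per cell, 49.5% ± 3.67 of thinned P1 macrophages held none of the 10 genes and 26.5% ± 2.94 held 1 (SD, n = 3). In cells with 1 of the 6 genes of the group present at birth, that gene was Mrc1 in 85.9% ± 3.41. At least 2 of the 10 genes were found in 23.9% ± 3.55 of P1 macrophages and in 75.8% ± 6.09 of P60 macrophages. Cells with 5 or more made up 1.37% ± 0.272 at P1 and 35.2% ± 4.64 at P60. Over the 6 genes present at birth alone, at least 2 were found in 23.8% ± 3.53 of P1 and 67.0% ± 8.78 of P60 macrophages.

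Finding one of the genes in a P60 macrophage went with higher odds of finding any other, and the same held for nearly all pairs that could be measured at P1. Co-detection of a pair was measured after thinning as the log2 odds ratio, which is 0 where finding one gene says nothing of the other and 1 for each doubling of the odds, with 0.5 added to each count. At P60 all 45 pairs had a log2 odds ratio above 0 in each of the 3 libraries, with a median of 2.04 and a range of 0.36 to 5.29. Pairs of other genes were not measured in this way, so the count is not read as particular to these genes. Cells of 1 library share their source, so these values are a description with no p-value.

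The highest values at P60 joined the Cd209 lectins, Folr2 and Fcna. Cd209d with Cd209g was lower, at 3.24 ± 0.22 (SD, n = 3). Retnla with Cd209f (3.69), Cd209g (3.48) and Fcna (3.32) lay above that pair. Cd209f and Cd209g had a log2 odds ratio of 5.29 ± 0.92 (SD, n = 3), and 87.9% of Cd209g-positive cells held Cd209f. Both genes share transcript windows, as given above, and whether these windows raised or lowered the value of this pair was not tested. Cd209d, which has no such window in common with Cd209f, had 4.52 ± 0.27 with it. Folr2 and Fcna had 5.15 ± 1.57, and 94.4% of Fcna-positive cells held Folr2. Folr2 was also found in 94.7% of cells with Cd209d, 93.1% of those with Cd209g and 91.5% of those with Cd209f. Retnla was found in 86.9% to 91.4% of the cells with each of the 3 Cd209 genes, with log2 odds ratios of 3.20 to 3.69.

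Cd163, Mrc1 and Timd4 were linked less closely to the rest. The pair of Retnla and Cd163 had the lowest value at P60, 0.36 ± 0.17 (SD, n = 3), followed by Cd163 with Timd4 at 0.89 ± 0.71 and Retnla with Mrc1 at 0.95 ± 0.22. Over its 9 pairs at P60, the median was 1.23 for Cd163, 1.51 for Timd4 and 1.60 for Mrc1, against 3.69 for Cd209f.

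At P1 a log2 odds ratio could be had for the 15 pairs among Clec10a, Mrc1, Cd163, Folr2, Fcna and Timd4. Their median was 2.70, and the same 15 pairs had a median of 1.51 at P60. Folr2 with Fcna had 4.34 ± 0.07 (SD, n = 3) and Folr2 with Clec10a 3.82 ± 0.11 at P1, which were close between libraries. Fcna with Timd4 had the highest value at P1, 5.21 ± 0.45, with Fcna in 18 of 20 thinned Timd4-positive cells, and Folr2 with Timd4 had 4.01 ± 1.42. Of the 15 pairs, 14 were above 0 in each library. The exception was Mrc1 with Timd4 at 0.84 ± 1.60, which was -0.12 in the lowest library. Cd163 had a median of 2.70 over its 5 pairs at P1, so that the gene was linked to the others at birth, with 59.1% of Cd163-positive cells holding Folr2.

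**Figure D3:**
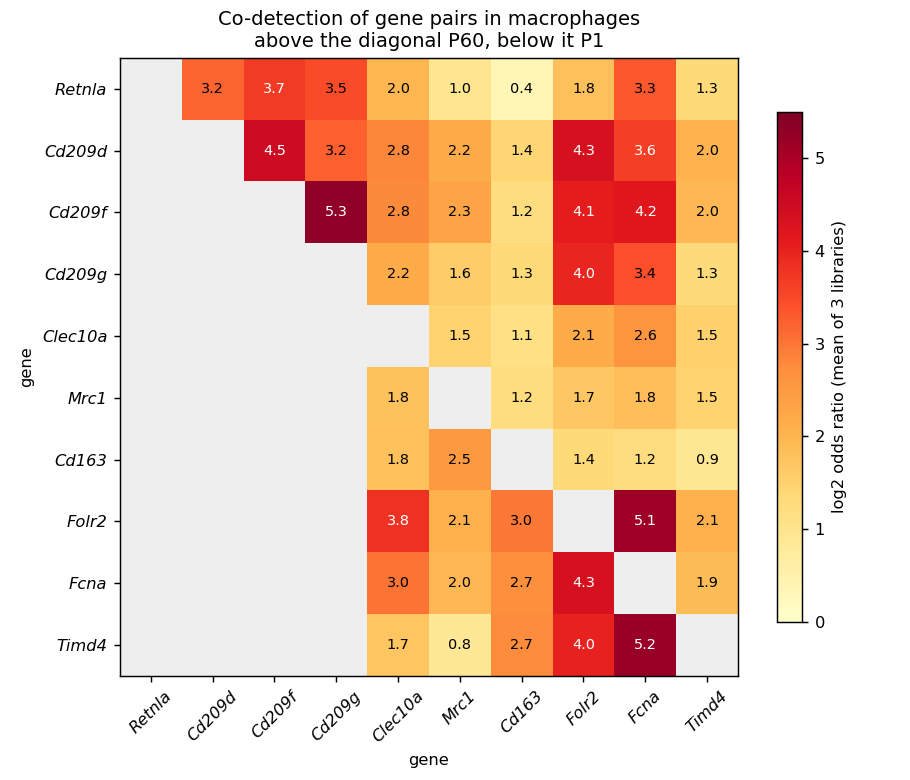
Co-detection of each pair of the 10 genes in thinned macrophages, as the mean log2 odds ratio of 3 libraries (colour and printed value), for P60 above the diagonal and P1 below it. Grey marks pairs with a gene not found in each P1 library. The darkest P60 fields join Cd209f with Cd209g (5.3) and Folr2 with Fcna (5.1), and the palest joins Retnla with Cd163 (0.4).

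The 9 P1 macrophages with Cd209f held other genes of the set that were present at birth. All 9 held Mrc1, Folr2 and Fcna, 7 held Clec10a, 5 held Cd163 and 1 held Timd4, without thinning. In the other 861 P1 macrophages these genes were found in 78.4% (Mrc1), 28.6% (Folr2), 26.9% (Fcna), 23.5% (Clec10a), 15.2% (Cd163) and 7.55% (Timd4). All 9 also held Lyve1, a hyaluronan receptor of macrophages along vessels, against 24.3% of the other cells. The 9 cells were deeper, with a median of 12822 UMIs against 7407, and none passed the gate of a cell class outside the leukocytes. Their small number and their depth leave this as a description of 9 cells.

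At P60, Retnla split the macrophages into 2 parts with few cells between them. Cells with at least 1000 CPM of Retnla and at least 3 UMIs are called Retnla-high. They were 109 of 243, 156 of 307 and 162 of 393 macrophages in replicates 1, 2 and 3, or 45.6% ± 4.84 (SD, n = 3). Cells between 500 and 2000 CPM, near the threshold, numbered 11, 22 and 18. A class cut from a level is a range and not a cell type. The median Retnla-high cell held 27869.9 to 36194 CPM of Retnla, and the Retnla-low cells as a whole held 139 ± 54.6, near the 106 of fibroblasts.

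All 9 other genes had a higher level in the Retnla-high than in the Retnla-low part of each library, an order that 23.1% of the 6126 genes tested between these parts showed. Co-detection had shown the same link, so the count is no separate evidence. Cd209g had 431 CPM in the high and 34.8 in the low part, a log2 difference of 3.57 ± 0.20 (SE, edgeR fit with the library as a block). Cd209f had 1517 and 144 (3.45 ± 0.26), Fcna 961 and 114 (3.08 ± 0.22), and Cd209d 523 and 74.1 (2.82 ± 0.18). Clec10a had 700.0 and 222 (1.67 ± 0.11) and Folr2 1577 and 514 (1.63 ± 0.12). Timd4 had 108 and 47.0 (1.19 ± 0.22). The smallest differences were those of Mrc1, with 946 and 697 (0.46 ± 0.11), and Cd163, with 632 and 510 (0.39 ± 0.13). With the macrophage gate at 2 UMIs all 9 differences were larger, at 1.12 (Cd163), 1.21 (Mrc1), 1.90 (Timd4), 2.33 (Folr2), 2.36 (Clec10a), 3.55 (Cd209d), 3.72 (Fcna), 4.19 (Cd209f) and 4.24 (Cd209g). Depth differed between the parts, and not in one direction, with a median of 4644, 3762 and 3254.5 UMIs in the Retnla-high cells and 3498, 3310 and 3994 in the Retnla-low cells. Cells over 10% mitochondrial UMIs made up 0%, 3.85% and 3.09% of the Retnla-high and 0%, 0.662% and 0.433% of the Retnla-low cells. The log2 differences ranged from 0.39 (Cd163) to 3.58 (Cd209g) without those cells, and from 0.41 (Cd163) to 3.31 (Cd209g) with all cells thinned to 1500 UMIs.

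After thinning, Retnla-high cells held 4.55 ± 0.322 of the 9 other genes and Retnla-low cells 1.97 ± 0.373 (SD, n = 3). At least 1 of the 3 Cd209 genes was found in 66.0% ± 2.63 of Retnla-high and 9.03% ± 4.17 of Retnla-low cells. The Retnla-low cells of P60 can be set beside the macrophages of P1, which had no Retnla. Timd4 had 27.9, 57.8 and 55.3 CPM in the Retnla-low parts, which overlapped the P1 libraries. Fcna had 64.4, 129 and 149 CPM in them, below the 235 to 337 of the P1 libraries. Those of Cd163 had 338, 348 and 845, above the 48.1 to 76 at P1. Clec10a (195 to 272 CPM), Folr2 (460 to 549), Mrc1 (583 to 915) and the 3 Cd209 genes were also above all P1 libraries in each Retnla-low part.

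**Figure D4:**
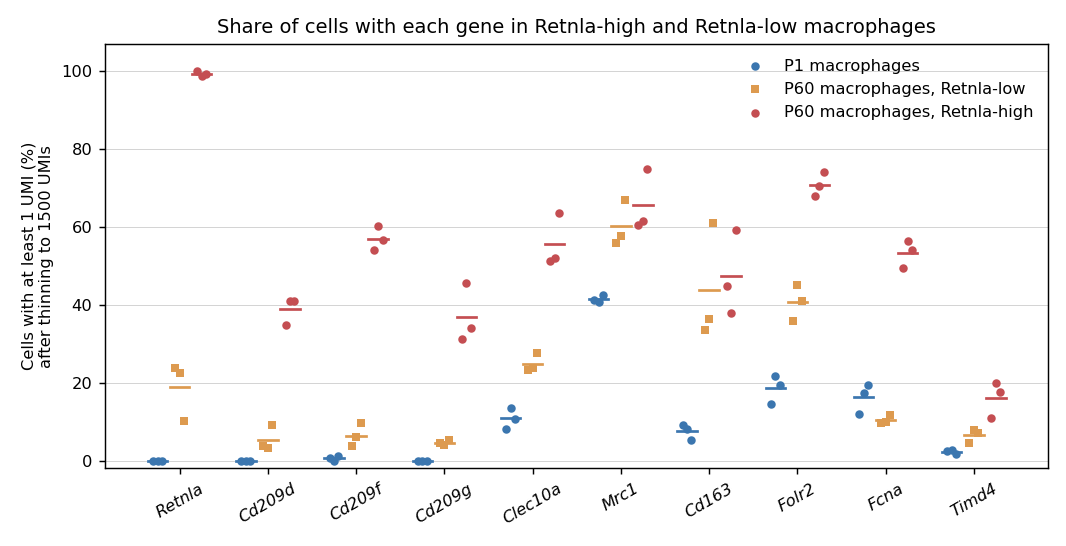
Share of cells with at least 1 UMI of each gene after thinning to 1500 UMIs per cell (y axis, percent), in P1 macrophages (blue), Retnla-low P60 macrophages (orange squares) and Retnla-high P60 macrophages (red). Points are the 3 libraries and bars their means. Cd209d, Cd209f, Cd209g and Fcna show a wide gap between the P60 parts, and Mrc1 and Cd163 overlap between them.

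Other genes of these macrophages were followed as fixed lists, tested with edgeR across all genes with Benjamini-Hochberg adjustment over all of them and a threshold of 0.05. The lists were drawn up with earlier results of these data known, so their direction is not independent evidence. Between Retnla-high and Retnla-low P60 macrophages, 6.87% of the 6126 genes tested were called higher and 7.04% lower. The 852 calls fell to 444, 520 and 495 without P60 replicate 1, 2 and 3. Of 19 tested genes of the list of related macrophage genes, 15 were called higher and 1 (Stab1) lower, with a median log2 difference of 0.95 against -0.02 over all genes tested. Among the 10 tested C1q and microglia-like genes, 0 were called higher and 7 lower, with a median of -0.93. With the macrophage gate at 2 UMIs, 3 genes of this list were called lower and 2 higher. Of 7 MHC class II genes, 4 were called lower, a count that was 0 with the macrophage gate at 2 UMIs and without P60 replicate 2. In the IL-4 and IL-13 list 3 of 9 tested genes were called higher and 2 lower, and of 13 pan-macrophage genes 1 (Ccr2) was called higher and 5 lower. Of 3 tested paralogs, Cd209a and Cd209b were called higher and Mgl2 lower.

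The genes of the lists with the largest differences between the parts, all in the same direction in each library, show which other products went with Retnla. Ear2, a ribonuclease of eosinophils and some macrophages, had 217 ± 35.6 CPM in Retnla-high and 3.21 ± 3.13 in Retnla-low cells (SD, n = 3), with a log2 difference of 6.12 ± 0.33 (SE) and an adjusted p of 2.4e-07 (edgeR). Cd209b, a further lectin of the cluster, rose by 2.64 ± 0.21 (adjusted p = 4e-06). Ednrb, an endothelin receptor, rose by 2.25 ± 0.17 (adjusted p = 3.3e-06), and the chemokines Ccl24 and Ccl6 rose by 2.10 ± 0.12 (adjusted p = 4.2e-07) and 1.82 ± 0.13 (adjusted p = 1.8e-06).

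The largest falls in Retnla-high cells were mostly in genes shared with microglia. Cx3cr1, the fractalkine receptor, had 35.6 ± 23.0 CPM in Retnla-high and 271 ± 100.3 in Retnla-low cells (SD, n = 3), a log2 difference of -2.96 ± 0.18 with an adjusted p of 6.4e-07 (edgeR). Olfml3 fell by 2.02 ± 0.37 (adjusted p = 0.0032). Cd14, a co-receptor for bacterial lipopolysaccharide, fell by 1.59 ± 0.11 (adjusted p = 1.5e-06), and Trem2, a lipid receptor of microglia and other macrophages, fell by 1.31 ± 0.14 (adjusted p = 4.2e-05). The Trem2 call was lost with the gate at 2 UMIs (adjusted p = 0.088) and the Olfml3 call without P60 replicate 1 (adjusted p = 0.057).

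Between ages, 20.4% of the 9579 genes tested were called higher at P60 and 18.6% lower, with a median log2 difference of 0.02. All 7 MHC class II genes were higher at P60, with a median log2 difference of 6.43. H2-Eb1 and H2-Aa, chains of the class II molecules, had 40.6 and 55.1 CPM at P1 and 4835 and 6358 at P60 (adjusted p = 4e-07 and 7.1e-08, edgeR). Of the 20 related macrophage genes 14 were called higher and 1, the lectin Clec4n, lower. Clec4n had 238 ± 21.2 at P1 and 26.2 ± 4.86 at P60 (SD, n = 3), a log2 difference of -3.11 ± 0.17 with an adjusted p of 5.9e-07. Pf4, Igf1, Maf, Stab1 and Ednrb of this list did not pass the test.

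Of the 11 tested C1q and microglia-like genes 8 were called lower at P60 and 1, Siglech, higher. Tmem119 fell by 2.79 ± 0.33 (adjusted p = 0.00012), Trem2 by 1.88 ± 0.11 (adjusted p = 1.4e-06) and Cx3cr1 by 1.40 ± 0.27 (adjusted p = 0.0025), all by edgeR. Of 12 tested genes of IL-4 and IL-13 signalling, 5 were called higher and 1, the receptor chain Il4ra, lower, while Stat6 was not called (42 CPM at P60 and 37 at P1). The lower calls of this list numbered 0 with DESeq2, with a replicate block, without P1 replicate 1, 2 or 3, and without P60 replicate 2. Of 13 pan-macrophage genes, 5 were called higher and 5 lower.

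Of the paralogs of the 10 genes, 4 of 13 were tested, of which Cd209a, Cd209b and Mgl2 were called higher at P60 and Havcr2 lower. Havcr2 had 11.7 CPM at P1 and 3.99 at P60 (adjusted p = 0.019, edgeR), a call that was lost without P1 replicate 1 (adjusted p = 0.051) or 2 (adjusted p = 0.069). Cd209a had 294 UMIs at P60 after 3 at P1, a ratio per UMI sequenced of 176 with a 95% counting interval of 59.7 to 860 (exact, conditional binomial). Cd209b had 520 UMIs at P60 after 1 at P1, a ratio of 935 with an interval of 167 to 37015. The 2 further genes of the chromosome 8 cluster were nearly absent, with 12 UMIs of Cd209e and 4 of Cd209c at P60 and 0 of both at P1. With the members, 5 of the 7 genes of the cluster thus had more than 200 UMIs in P60 macrophages and none of the 7 more than 45 at P1. Ear2 behaved likewise, with 403 UMIs at P60 after 1 at P1 and a ratio of 725 (129 to 28703).

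The genes most like the 10 across cells were ranked by Pearson's r, over thinned macrophages of a library, between log2(1 + UMIs) of a gene and the number of the 10 genes found in the cell. At P60, over 938 cells of 3 libraries and 3486 genes found in at least 5% of them, the highest mean r was that of Wfdc17 (0.63, from 0.58 to 0.65 over libraries). It was followed by Ccl24 (0.61), F13a1 (0.59), Ly6e (0.57), Ninj1 (0.57), Fxyd2 (0.57), Ccl6 (0.57), Lyve1 (0.55), Ednrb (0.54) and Selenop (0.53). The lowest were those of Cd74 (-0.53), H2-Eb1 (-0.52), H2-Ab1 (-0.52), Cd52 (-0.51) and H2-Aa (-0.50), 4 of which serve MHC class II presentation. The cells of a library share depth after thinning but also the same suspension, and no p-value is given.

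By the same measure at P1, over 870 cells and 3495 genes, the highest were Pf4 (0.67), Lyve1 (0.65), F13a1 (0.59), Ednrb (0.59) and Gas6 (0.51). The 10 highest at each age had 5 genes in common, Ccl24, Ednrb, F13a1, Lyve1 and Wfdc17, which is 5 of 10 at either age. Ly6e, among the highest at P60, had a mean r of -0.14 at P1.

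Among all kept cells, macrophages held most UMIs of each gene at both ages wherever the gene was found in them. At P1 this share was 93.3% (Clec10a) to 98.7% (Timd4) over the 7 genes with UMIs in macrophages. At P60 it was 68.6% for Retnla, 77.5% for Cd209d, 79.4% for Clec10a and 83.7% to 94.3% for the other 7 genes. The remainder at P60 lay in part with leukocytes under the C1q gate, which are cells with at least 3 UMIs of Ptprc and Laptm5 together that passed no other gate. In 310 such cells at P60 the mean level was 69.3% of that in macrophages for Retnla, 44.4% for Cd209d, 30.2% for Clec10a, 17.2% for Mrc1, 13.2% for Cd163 and 12.9% for Timd4. For Cd209f, Folr2 and Fcna it was 0.756%, 0.963% and 1.19%. The level in macrophages was above that in every other class in each P60 library, for all 10 genes.

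Of these 310 leukocytes 132 were Retnla-high by the same threshold (37, 51 and 44 in replicates 1, 2 and 3), and 10 lay near it. In 90 of the 132 not a single C1q UMI was counted. They carried 26424 CPM of Retnla on average, against 36508 in the Retnla-high macrophages, and Ear2 at 927. Of the other genes they held Mrc1 (205), Cd209d (143), Clec10a (80.2) and Cd163 (76.2) and little of Folr2 (6.66), Cd209f (5.48), Fcna (2.92) and Cd209g (2.92), with 0 UMIs of Timd4. Of the 11 macrophage markers 8 to 10 were found in them per library, with a summed level of 16054 to 20739 CPM, most of it from Lyz2 (14206). Of the pan-macrophage list, Fcgr1 (1.55 against 109 CPM), Mertk (1.37 against 43.2) and Aif1 (6.01 against 366) were lower in them than in P60 macrophages. Cd68, Csf1r, Adgre1 and Cd14 were also lower. So was C1qc (16.1 against 3955), in cells gated by under 5 UMIs of C1qa and C1qb. Ccr2 (900.5 against 315.6) and Ptprc (607 against 191) were higher. Lyz2 (14206 against 13970.5), Tyrobp (1918 against 1922) and Ctss (1177 against 1335) were close to the level in macrophages. The class II chain H2-Ab1 had 8314 CPM, Pf4 21.7 and Lyve1 3.74. Markers of T and NK cells had 0 UMIs in them and those of dendritic cells 7 UMIs. As the cells were chosen by Retnla after values had been seen, these levels are a description. No marker list fixed here names this cell type, and it is left unnamed.

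**Figure D5:**
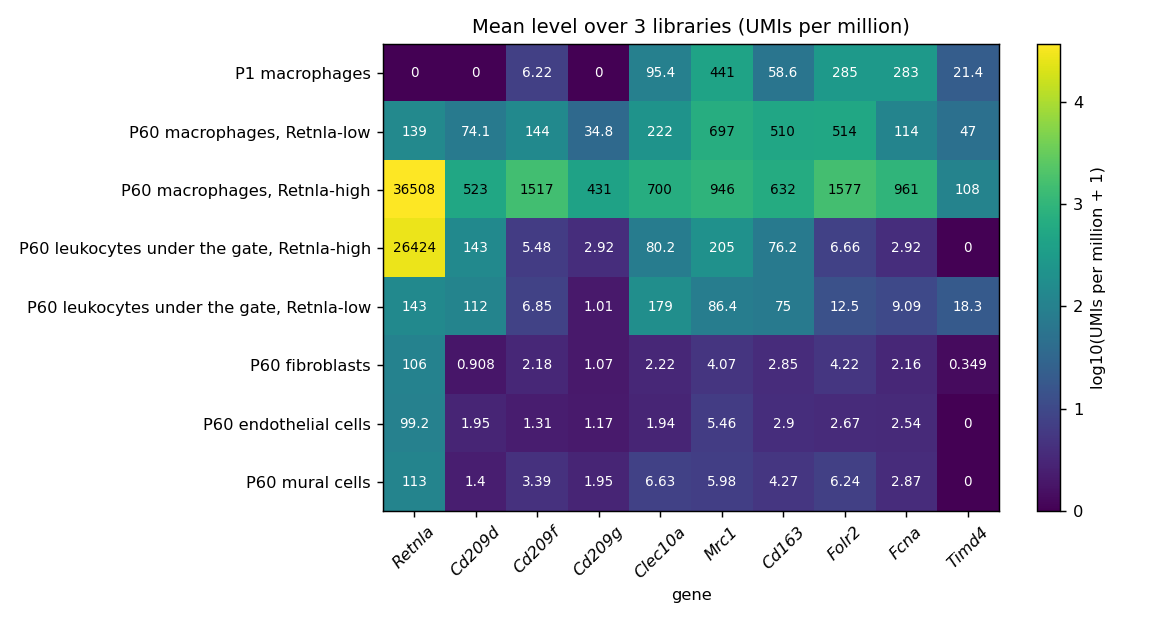
Mean level of each gene over 3 libraries, in CPM of the UMIs of the cells in a row (printed value; colour is log10 of the level plus 1), in parts of the macrophages, in leukocytes under the C1q gate and in 3 other P60 classes. Retnla reaches 36508 in Retnla-high macrophages and 26424 in Retnla-high leukocytes under the gate, where Cd209f, Cd209g, Folr2 and Fcna stay under 10.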

How the data were processed

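The authors sequenced the libraries and, for each, deposited a matrix of raw UMI counts per gene and barcode, after cell calling by Cell Ranger 2.0.2, with no normalization and no pooling of libraries. The submitters' processing notes name the mouse build GRCm38.p5, while the methods name a human build. Coordinates were taken from GENCODE M21 (GRCm38), where 41519 of 41605 gene identifiers matched, and promoters from RefSeq.

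The genes, lists and thresholds were chosen with earlier results of these data known. Total counts per library were 20203440 to 30334608 UMIs. Barcodes of 2 libraries coincided 14 to 33 times, and at most once between macrophages. Barcodes with 500 to 5000 genes were kept, and no doublet caller was run (49 macrophages at P1 and 68 at P60 also passed the gate of a class outside the leukocytes). Classes with under 5 C1q UMIs were gated by UMIs: Dcn of at least 10 (fibroblast), Pecam1 and Cdh5 of at least 5 (endothelial), Rgs5 and Pdgfrb of at least 5 (mural). A further class and 1 list gene that the naming rule picked are not reported here. Counts were summed per library (and per part, with the library as a block) and tested with edgeR 4.0.16 quasi-likelihood fits (TMM, filterByExpr, threshold 0.05 after Benjamini-Hochberg adjustment), with DESeq2 1.42.0 as an alternative. The SE of a log2 difference was calculated back from the test, as its absolute value over the square root of the quasi-likelihood F. List genes named are the 5 largest rises and 5 largest falls among those called whose groups do not overlap. Scripts were tested on simulated data. A count of 0 was bounded at 3 UMIs, and intervals cover counting error only. For the ages, the p-values measure the spread between suspensions of pooled mice. For the Retnla parts, they measure how the difference within a suspension varied from suspension to suspension. Python 3.11.15 and R 4.3.3 were used.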

Additional observations from a re-analysis of the deposited data

How the results depend on the processing

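No alternative turned the direction of the log2 difference of any of the 10 genes or of a named list gene. In the C1q and microglia-like list, 0 genes were called higher in Retnla-high cells, but 2 with the gate at 2 UMIs. The calls of Havcr2, Trem2 and Olfml3 were lost under the alternatives given beside them, and no other call of a named list gene was. The median log2 odds ratio over the 45 pairs at P60, 2.04, was 2.42 with the macrophage gate at 2 C1q UMIs, 1.81 at 10 and 1.80 at 20. It was 1.67 when cells were thinned to 1000 UMIs, 2.32 at 3000 and 2.67 without thinning, and 1.88 to 2.18 when each P60 library was left out. Between Retnla-high and Retnla-low cells, 852 genes were called (421 higher, 431 lower). The count was 264 (127 and 137) with DESeq2, 1506 (668 and 838) with the gate at 2 UMIs and 444 to 520 when a library was left out (444 without P60 replicate 1, 520 without replicate 2 and 495 without replicate 3). Without the replicate block, that is without the library as a term, it was 229 (112 and 117), and both parts come from the same suspension, which is where this pairing comes from. Between ages, 3732 genes were called, 2743 to 4044 when a library was left out and 2761 with DESeq2. With a replicate block on the shared numbers it was 3350, a block with no ground in the design. Deviations of same-numbered libraries from their age means correlated at r of 0.00, -0.04 and -0.10. No P1 library correlated best with the P60 library of its own number. With the gate at 2 UMIs the log2 difference between ages was 0.53 for Mrc1, 0.41 for Fcna, 1.38 for Folr2, 1.42 for Timd4 and 1.83 for Clec10a. That of Cd209d also moved, but a fitted difference against 0 UMIs depends on the prior count and is not given. Depth limits the share of cells with Timd4, which averaged 1.58 UMIs per positive P60 cell. The causes of these shifts were not tested.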

Other observations

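Ligands known to maintain or polarise macrophages were found in other classes of the nerve. Il34, a ligand of the CSF1 receptor, had 307 ± 87.0 CPM in P60 mural cells and 111 ± 9.57 in P1 mural cells (SD, n = 3), and 31.8 ± 9.81 in P60 fibroblasts against 1.91 ± 0.037 at P1. Csf1, the other ligand of that receptor, had 72.3 ± 6.92 in P60 and 22.1 ± 0.953 in P1 fibroblasts. The ranges of the ages did not overlap in these classes, and no test was run on them. The gated classes held few transcripts of the cytokines that induce Retnla, and cells outside these classes were not counted. Il13 had 3 UMIs over the classes measured, all in P60 leukocytes under the C1q gate. Il4 had 7 UMIs in P1 and 12 UMIs in P60 macrophages, and 1 UMI in P1 and 0 in P60 leukocytes under the gate.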
